A study of Mus musculus with 9 samples.

Results

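The Rbfox genes of the mouse, *Rbfox1*, *Rbfox2* and *Rbfox3*, encode a family of splicing regulators, and their expression was followed here through the cholinergic neurons of the adult spinal cord. They were found by gene symbol and are 3 of the 21457 genes in the expression matrix of this single nucleus RNA-sequencing study. Nuclei came from Chat-IRES-Cre::Sun1-sfGFP mice (genotype Chat-iCre:+/wt; SUN-SfGFP:+/wt) aged 8 weeks, in which Cre driven by the choline acetyltransferase gene switches on a GFP-tagged protein of the nuclear envelope. GFP+/DRAQ5+ nuclei were sorted, and because Cre acts for good, the sort can hold any cell that had *Chat* at some time in its life. The cords of 12 mice were pooled 4 to a pool, replicate 1 with 2 males and 2 females, replicate 2 with males and replicate 3 with females. The 9 libraries are the cervical, thoracic and lumbar/sacral parts of each of the 3 pools, so that the libraries of a replicate number come from the same mice and each sex outside the mixed pool is 1 pool.

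Rbfox proteins bind the RNA sequence UGCAUG through a single RNA recognition motif, and where they sit relative to an alternative exon decides whether it is kept or skipped. *Rbfox1* and *Rbfox2* act in brain, heart and muscle, and *Rbfox2* is also made in many tissues outside of these. *Rbfox3* encodes the protein known as NeuN, the antigen of an antibody widely used to label mature neurons. NeuN is known to be weak in gamma motor neurons (MNs), which innervate muscle spindles, and strong in alpha MNs, which drive muscle contraction, so it serves to separate these types in tissue.

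The likeness of the members is shown by 60 bases of the exon that encodes part of the RNA recognition motif, from the GENCODE vM21 transcripts on GRCm38, read on the coding strand. Capitals mark the positions at which the 3 genes are not all the same, and lower case marks the 44 of 60 at which they are. These stretches lie at chr16:7292218-7292277 (plus strand, exon 5 of 13 of transcript Rbfox1-203), chr15:77105577-77105636 (minus strand, exon 6 of 14 of Rbfox2-204) and chr11:118502842-118502901 (minus strand, exon 8 of 15 of Rbfox3-201).
Rbfox1: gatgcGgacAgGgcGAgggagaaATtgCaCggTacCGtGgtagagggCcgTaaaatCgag
Rbfox2: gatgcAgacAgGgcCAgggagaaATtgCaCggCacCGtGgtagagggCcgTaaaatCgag
Rbfox3: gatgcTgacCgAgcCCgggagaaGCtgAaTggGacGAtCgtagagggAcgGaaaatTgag
*Rbfox1* and *Rbfox2* had 57 of these bases in common, *Rbfox2* and *Rbfox3* 45, and *Rbfox1* and *Rbfox3* 44. No stretch as long as the 98-base transcript read was shared by the annotated spliced transcripts of any pair of members, and the longest shared run was 29 bases, between *Rbfox1* and *Rbfox2*. The genes span 1526.17 kb (*Rbfox1*), 228 kb (*Rbfox2*) and 422 kb (*Rbfox3*). On the opposite strand, *1700109K24Rik* overlaps *Rbfox2* and had 46.7 CPM over all nuclei, and *Gm11750* overlaps *Rbfox3* and had 1.95 CPM. How the counting treated strand is not given in the sources used here, so reads of these pairs may not have been told apart.

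The authors typed 16042 of 34231 annotated nuclei as cholinergic and placed them in 21 clusters, namely skeletal MNs (S1 to S3), visceral MNs (V1 to V10) and cholinergic interneurons (I1 to I8). The corrected counts of all nuclei that a library had in a cluster were added up and scaled to 1e+06, given as CPM from here on, for sums of at least 10 nuclei. Median totals per nucleus ran from 4712 in lumbar/sacral replicate 1 to 16127 in cervical replicate 2, and 66 cholinergic nuclei had a barcode that another library also held. The libraries labelled cervical and thoracic of replicate 2 went against their labels in *Hoxc5*, one of the Hox genes that mark levels of the cord. *Hoxc5* was at 73.3 CPM in cervical replicate 2 against 25.4 and 22.5 in the other cervical libraries, and at 13.9 in thoracic replicate 2 against 85.3 and 84.2 in the other thoracic libraries. Labels were kept as given, both libraries count among the rostral (cervical and thoracic) ones in either case, and the limma results by region were also computed without them.

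Of the members, *Rbfox1* varied most between clusters and *Rbfox2* least. The highest mean over libraries was 39.4 times the lowest for *Rbfox1*, 16.1 times for *Rbfox3* and 1.81 times for *Rbfox2*. Since nuclear RNA holds introns, levels of different genes were compared in CPM per 100 kb of annotated gene. On that scale *Rbfox1* was the highest member in 10 of 21 clusters, which were all skeletal clusters, V8 and the interneuron clusters other than I3 and I4, and *Rbfox2* was the highest in the remaining 11. *Rbfox3* was the highest in 0 clusters, but lay above *Rbfox1* in V2, V6, V7 and V9. In S1 the levels were 374 (*Rbfox1*), 169 (*Rbfox2*) and 8.49 (*Rbfox3*) CPM per 100 kb, whereas in V7 they were 23.7, 154 and 44.8 in the same order. This order of the genes depends on the scaling by length. In plain CPM *Rbfox1* had the highest mean in every cluster, in V7 with 361 against 351 for *Rbfox2* and 189 for *Rbfox3*. How far the counts of these 3′ libraries grow with gene length was not tested. At least 1 corrected count of each of the 3 genes was found in 48.4% of nuclei, and none of any of them in 66 nuclei, of which 65 were visceral.

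**Figure D1:**
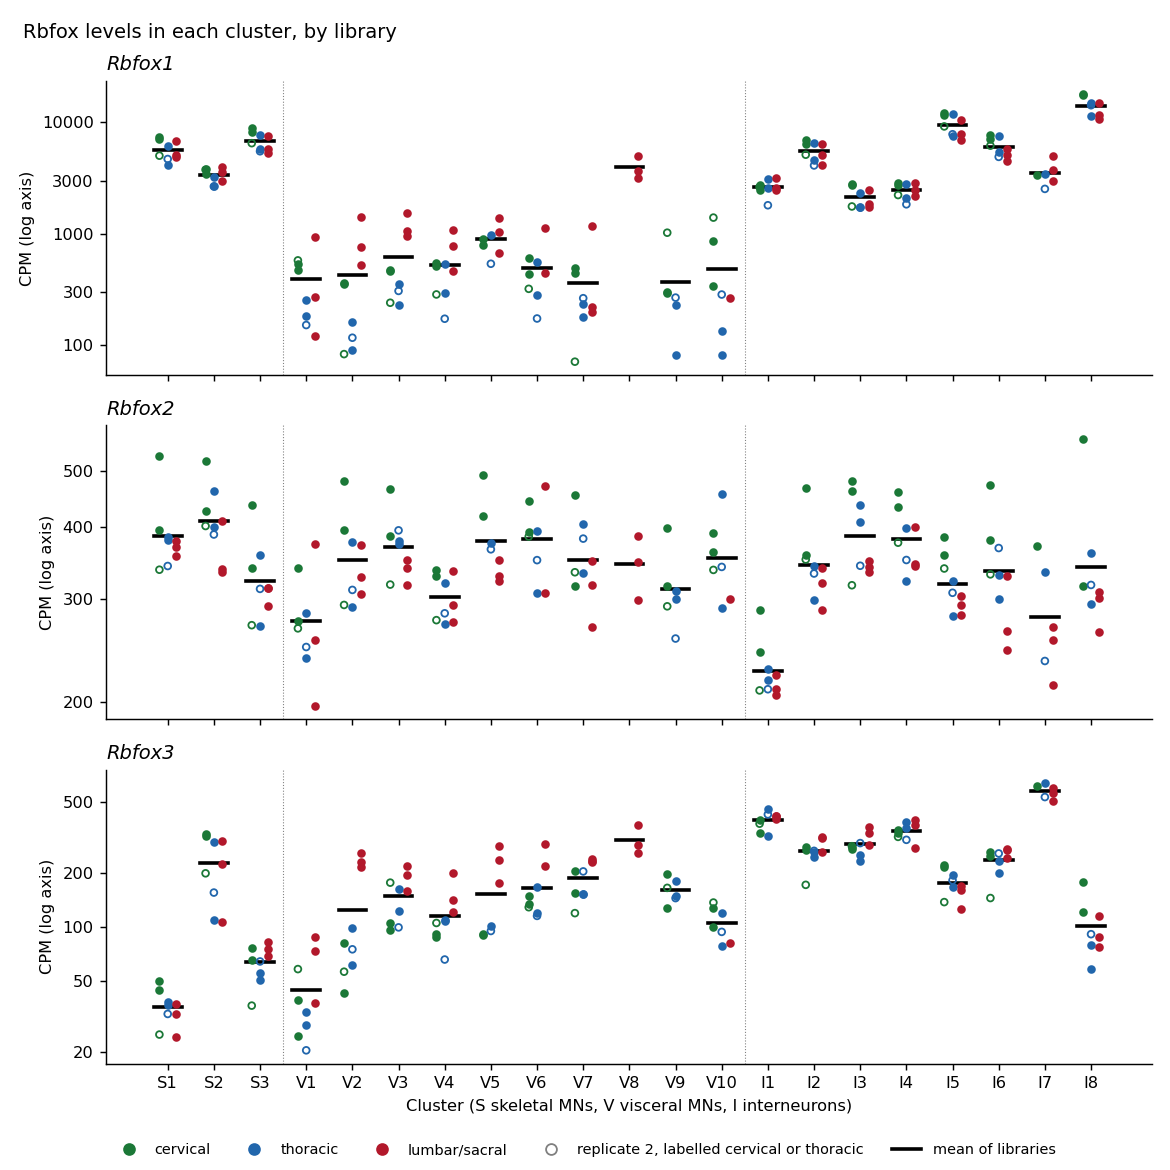
Level of each Rbfox gene in CPM (log axis) for the 21 clusters, with a point per library sum of at least 10 nuclei and a black bar for the mean; open symbols are the replicate 2 libraries labelled cervical or thoracic. *Rbfox1* runs from a mean of 14211 in I8 to 361 in V7, *Rbfox3* from 576 in I7 to 35.8 in S1, and *Rbfox2* stays between 226 and 409.

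*Rbfox1* fell into 2 ranges, one of skeletal, interneuron and V8 nuclei and one of the other visceral clusters. In I8 the lowest, median and highest of 8 libraries were 10832, 14571 and 17901 CPM, and every one lay above the highest value of every other cluster but I5. The mean was 14211 ± 2774 CPM in I8 (SD, n = 8), 9538 ± 2079 in I5 (n = 9) and 6814 ± 1313 in S3 (n = 9). I6 (6035 CPM), S1 (5709.9), I2 (5483), V8 (3959), I7 (3511), S2 (3353), I1 (2608), I4 (2450.4) and I3 (2128) followed. The remaining clusters, V1 to V7, V9 and V10, had means of 361 to 897 CPM. The step from I3 to V5, the highest of these, was 1.34 ± 0.42 on the log2 scale and was seen in 7 of 7 libraries with both. Of the 20 pairs of neighbours in this order, 7 differed by more than 1 SD of their paired differences and 13 did not, every step from V5 down to V7 among the latter.

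In the rostral libraries the low visceral level of *Rbfox1* lay, relative to skeletal MNs, within the range of genes that mark the other classes. In the 6 rostral libraries *Rbfox1* in visceral MNs was at 3.93 to 9.16% of its level in the skeletal MNs of the same library (median 7.09%). *Tns1*, a skeletal MN marker, was there at 7.36 to 10.4% of its skeletal level (median 8.15%). *Pax2* and *Mpped2*, which mark interneurons, were at medians of 1.21% and 2.22%. The part that RNA from other nuclei has in these *Rbfox1* values was not tested.

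*Rbfox2* had a narrow range. Its means ran from 409 ± 57.4 CPM in S2 (SD, n = 9) to 226 ± 26.1 in I1 (n = 9), and 18 of the 20 neighbours in that order were within 1 SD of their paired differences. I1 stood at the lower end, 0.26 ± 0.24 below its neighbour V1 on the log2 scale and lower in 8 of 9 libraries. A corrected count of *Rbfox2* was found in 76.8% ± 13.6 of I1 nuclei and 96.1% ± 5.09 of S2 nuclei.

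*Rbfox3* was highest in interneurons. In I7 the lowest, median and highest of 6 libraries were 510.1, 581 and 639 CPM, all above every library of every other cluster. The mean was 576 ± 49.3 CPM in I7 (SD, n = 6), 395 ± 42.5 in I1, 346 ± 38.7 in I4 (n = 9 each) and 307 ± 60.1 in V8 (n = 3). I3, I2, I6 and S2 followed at 290.2, 267, 238 and 229 CPM. The middle of the order, V7, I5, V6, V9, V5, V3, V2, V4, V10 and I8, had means of 189 down to 102 CPM. At the foot stood S3 with 64.3 ± 14.6 CPM, V1 with 44.9 ± 23.4 and S1 with 35.8 ± 8.34 (n = 9 each). Of 20 neighbours 4 differed by more than 1 SD of their paired differences, I7 from I1 (0.53 ± 0.25 on the log2 scale) and I8 from S3 (0.50 ± 0.40) among them.

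Shares of nuclei with at least 1 corrected count followed the *Rbfox3* levels. They were 96.6% ± 3.94 in I7, 73.1% ± 18.8 in S2, 38.2% ± 5.89 in S3 and 25.2% ± 8.33 in S1. With every nucleus thinned to 4000 corrected counts, which left out 566 nuclei of lumbar/sacral replicate 1, the shares were 87.5%, 54.0%, 20.4% and 13.2% in the same order. No cluster here is known to lack *Rbfox3*, so markers of the other classes served as the background. Those of visceral MNs and interneurons were found in 2.51 to 13.8% of S1 nuclei, at 1.60 to 4.04% of their own classes' level, where *Rbfox3* was at 12.1% of its interneuron level. In S3 they were at 2.75 to 11.3%, against 21.4% for *Rbfox3*. In V1 skeletal and interneuron markers reached 14.0015%, against 15.0% for *Rbfox3*, which is close to that background.

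*Rbfox1* and *Rbfox3* ran in broadly opposite order among the interneuron clusters, and differed in opposite directions between S2 and each of S1 and S3, but not between S1 and S3 or among the visceral clusters. Pearson's r between their mean log2 levels was −0.83 over the 8 interneuron clusters (Spearman's rho −0.76), and −0.87 over the 6 left without I7 and I8. Over the 10 visceral clusters r was 0.59 and rho 0.13, and without V8 they were 0.16 and −0.20. Over all 21 clusters r was 0.20 and rho 0.12, so the opposite order was not a property of the whole set. These are descriptions of clusters that share their libraries and pools, with no test. I8 had the highest *Rbfox1* and the lowest *Rbfox3* of the interneuron clusters, and I7 the highest *Rbfox3*, whereas the lowest *Rbfox1* was in I3. In each of 6 libraries with both, I8 had more *Rbfox1* than I7, by 2.02 ± 0.41 on the log2 scale, and less *Rbfox3*, by a difference of −2.61 ± 0.45. I5 differed from I7 in the same way, by 1.43 ± 0.35 for *Rbfox1* and −1.70 ± 0.19 for *Rbfox3*. V8, in turn, was high in both genes: against V1, the visceral cluster lowest in *Rbfox3*, it had 3.61 ± 1.12 more *Rbfox1* and 2.18 ± 0.84 more *Rbfox3* in its 3 libraries. Against V7 it had 3.38 ± 1.09 more *Rbfox1* but only 0.35 ± 0.28 more *Rbfox3*. In the lumbar/sacral libraries its *Rbfox3* (259 to 375 CPM) overlapped with that of V2 (216 to 261), V5 (176 to 284) and V6 (220 to 292).

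**Figure D2:**
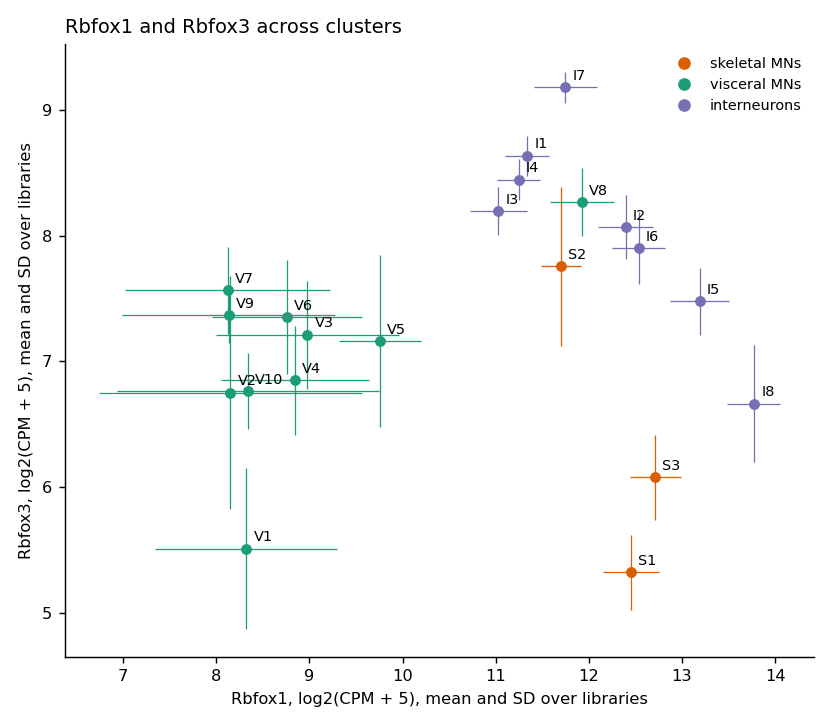
Level of *Rbfox3* against that of *Rbfox1*, both as log2(CPM + 5), in the 21 clusters, marked by class, with points for the mean and bars for the SD over libraries. Of the 8 interneuron clusters I8 lies at the lower right and I7 at the top, with I1, I3 and I4 to the left of I7, the skeletal types S1 and S3 lie below and to the right of S2, and the visceral clusters other than V8 lie to the left, with mean levels of 361 to 897 CPM of *Rbfox1*.

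Within skeletal and interneuron clusters, a split of nuclei by detection of *Rbfox3* showed little of this opposition. *Rbfox3* was found in 25.2% of S1 and 38.2% of S3 nuclei, so having a count or not depends in part on sampling. Such a split can miss an opposition between nuclei, and small differences do not show that there was none. Nuclei with a corrected count of *Rbfox3* were compared with those without in each library that had at least 10 of each. In S1 and S3 the difference in *Rbfox1* was −0.04 ± 0.09 and −0.01 ± 0.07 on the log2 scale (n = 9), and in S2 it was −0.12 ± 0.18, with lower values in 6 of 8 libraries. In the interneuron clusters with values, all but I7, mean differences lay between −0.08 and 0.14. Visceral clusters differed in sign. The largest mean difference was in V1, 0.87 ± 1.12, with higher values in 4 of 6 libraries. It rests largely on the libraries labelled cervical replicates 2 and 3, with 2.34 and 2.06. In V4 nuclei with *Rbfox3* had more *Rbfox1* in 8 of 8 libraries (0.57 ± 0.47), and in V5 they had less in 6 of 6 (−0.57 ± 0.14). *Rbfox1* was at 3.53 to 16.3% of the skeletal level in V4 and at 11.03 to 20.8% in V5.

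Between the classes, *Rbfox1* was higher in skeletal MNs and interneurons than in visceral MNs, and *Rbfox3* was higher in interneurons than in either class of MNs. The lowest, median and highest *Rbfox1* of 9 libraries were 4661, 5063 and 6994 CPM in skeletal MNs. They were 188, 548 and 2553 for visceral MNs, and 3736, 4406 and 7049.7 for interneurons. The visceral values did not overlap with those of the other classes, which overlapped with each other. For *Rbfox3* these values were 53.3, 109 and 172 CPM in skeletal MNs, with 88.7, 105 and 247 for visceral MNs and 246, 297 and 341 for interneurons. Interneurons lay above all skeletal values, and their lowest library was just below the highest visceral one.

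In limma with the library as a term, *Rbfox1* was higher in skeletal than in visceral MNs by 3.13 on the log2 scale (standard error 0.30, adjusted p = 8.5e-09), and visceral MNs differed from interneurons by −2.96 (adjusted p = 4.29e-08). Skeletal MNs and interneurons differed by 0.18 (standard error 0.30, adjusted p = 0.636). The fit pools the spread of all classes, so this standard error includes the wide range of visceral MNs and a small difference can be missed. By library, *Rbfox1* in interneurons was at 74.5 to 118% of its skeletal level (mean 89.2%). *Rbfox3* differed by −1.54 between skeletal MNs and interneurons (standard error 0.20, adjusted p = 7.36e-07) and by −1.13 between visceral MNs and interneurons (adjusted p = 5.59e-05). Between skeletal and visceral MNs its difference was −0.41 (standard error 0.20, adjusted p = 0.0737). *Rbfox2* differed by no more than 0.20, its value between skeletal MNs and interneurons (standard error 0.03, adjusted p = 1.78e-05).

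In all, 2 of 3 members were called between skeletal and visceral MNs, where 66.7% of all genes tested were called, 2 of 3 between skeletal MNs and interneurons (59.5%) and 3 of 3 between visceral MNs and interneurons (51.4%), which leaves these counts as no result about the family. The classes were drawn by clustering the same nuclei, so the tests describe the labels. The *Rbfox3* difference between skeletal and visceral MNs passed the test without replicate 1, where it was −0.63 (adjusted p = 0.0201), and without the cervical or thoracic library of replicate 1 or the cervical library of replicate 3. The *Rbfox2* differences of 0.10 from visceral MNs failed it without replicate 1 or 3. The summed level of 13 markers of glia and vessels, of 15 listed, ranged over the same values in the classes, at 31.6 to 141 CPM for skeletal MNs, 30.9 to 125 for visceral MNs and 31.1 to 128 for interneurons. Of the markers of non-cholinergic neurons, *Slc17a6* was at 7.48, 6.13 and 9.81 CPM in the same order and *Slc32a1*, the vesicular transporter of inhibitory neurons, at 3.14, 3.62 and 31.6, and their part in the class differences was not tested.

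Among skeletal MNs, alpha MNs (S2) had less *Rbfox1* and more *Rbfox3* than gamma MNs (S3) and Type 3 MNs (S1). The lowest, median and highest *Rbfox1* of 9 libraries were 2657, 3473 and 3966 CPM in S2, 5349.7, 6515 and 8837 in S3 and 4136, 5118 and 7448 in S1. S2 did not overlap with S3 or S1, which overlapped with each other. *Rbfox3* was at 107, 226 and 333 CPM in S2, 36.5, 65.4 and 83.1 in S3 and 24.3, 36.9 and 50.01 in S1, again with S2 apart from both. By library the S2 values of *Rbfox3* were 333, 200.2 and 324 CPM in cervical, 299, 156 and 110.0 in thoracic and 305, 107 and 226 in lumbar/sacral replicates 1, 2 and 3. Replicate 1 was thus high in each region, and replicate 2 was the lowest in cervical and lumbar/sacral libraries.

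The log2 fold change of S2 against S3 was −1.01 for *Rbfox1* (standard error 0.07, adjusted p = 7.96e-12) and 0.34 for *Rbfox2* (standard error 0.06, adjusted p = 2.69e-05) with limma. Against S1 it was −0.75 for *Rbfox1* (adjusted p = 4.67e-09) and 0.08 for *Rbfox2* (adjusted p = 0.325). *Rbfox3* was 1.68 (adjusted p = 2.90e-09) and 2.43 (adjusted p = 9.28e-12) higher in S2 than in S3 and S1. The study used this gene to name S2, at first tentatively, as alpha MNs, and then added in situ hybridization and anatomical features. The *Rbfox3* difference thus describes the label and is not evidence for it. *Rbfox1* was lower and *Rbfox3* higher in S2 in 9 of 9 libraries against each of the other types. S1 and S3 differed less, by −0.26 for *Rbfox1* (adjusted p = 0.00721), 0.25 for *Rbfox2* (adjusted p = 0.00113) and −0.76 for *Rbfox3* (adjusted p = 0.000633), S1 minus S3. Calls were made for 3 of 3 members between S2 and S3 (31.1% of all genes tested), 2 of 3 between S2 and S1 (25.4%) and 3 of 3 between S1 and S3 (19.8%). The calls of *Rbfox1* and *Rbfox2* between S1 and S3 were lost without replicate 3 (adjusted p = 0.136 and 0.0611), and that of *Rbfox1* also without replicate 1 (0.0636).

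**Figure D3:**
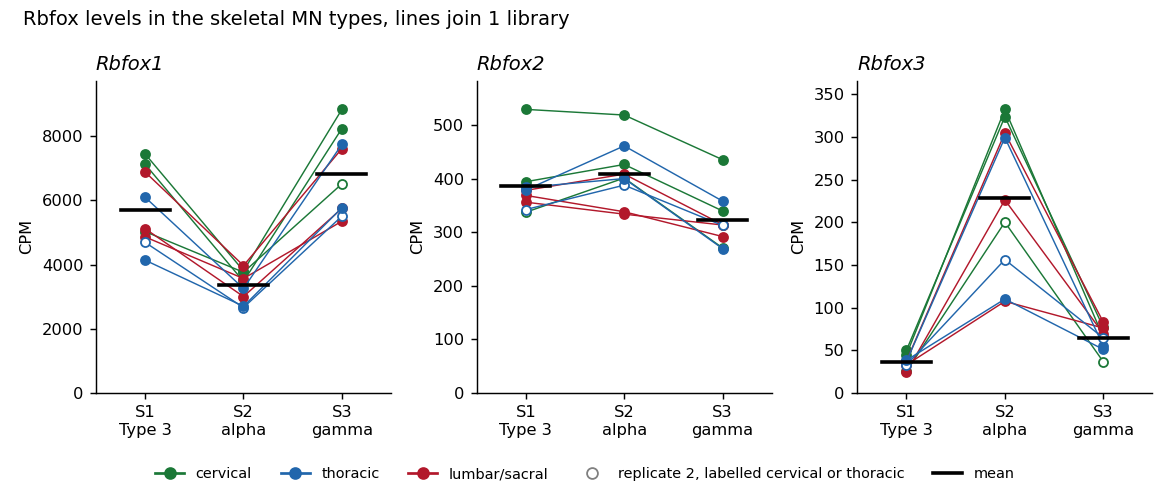
Level of the 3 genes in CPM (linear axes from 0) in Type 3 (S1), alpha (S2) and gamma (S3) MNs, with lines joining the sums of one library and a black bar for the mean; open symbols are the replicate 2 libraries labelled cervical or thoracic. In every library S2 has the lowest *Rbfox1* and the highest *Rbfox3* of the types.

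Along the cord, *Rbfox1* and *Rbfox3* were higher in lumbar/sacral visceral MNs than in rostral ones, and no difference was called in skeletal MNs or interneurons. *Rbfox1* in visceral MNs was at 2553, 1458 and 1424 CPM in lumbar/sacral replicates 1, 2 and 3, and its lowest, median and highest rostral values were 188, 378 and 560 CPM. *Rbfox3* was at 238, 207 and 247 CPM in the lumbar/sacral libraries and at 88.7, 101 and 114 in the rostral ones. Neither gene overlapped between the groups. The log2 fold change with limma was 2.23 for *Rbfox1* (standard error 0.24, adjusted p = 0.00125) and 1.15 for *Rbfox3* (standard error 0.11, adjusted p = 0.00053), and −0.07 for *Rbfox2* (standard error 0.12, adjusted p = 0.928). These were 2 of 3 members in a comparison that called 4.27% of genes. Without both replicate 2 libraries labelled cervical and thoracic, the values were 2.20 (adjusted p = 0.00479) and 1.12 (adjusted p = 0.00175). Without replicate 3 the *Rbfox1* and *Rbfox3* calls were lost (adjusted p = 0.0603 each), as was that of *Rbfox3* without replicate 1 (adjusted p = 0.0526), while the log2 fold changes stayed at 2.29, 1.13 and 1.13. Lumbar/sacral nuclei were shallower, with median totals of 4712, 7175 and 5701 against 7087 to 16127. Lumbar/sacral replicate 1, the shallowest, had the highest *Rbfox1*. With nuclei thinned to equal totals both calls stood, but thinning draws counts in proportion and leaves the expected CPM unchanged, so it cannot decide this. The part of depth in these values was not tested. In a bulk of nuclei, more nuclei of a kind and more RNA per nucleus cannot be told apart, so the clusters were looked at next.

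**Figure D4:**
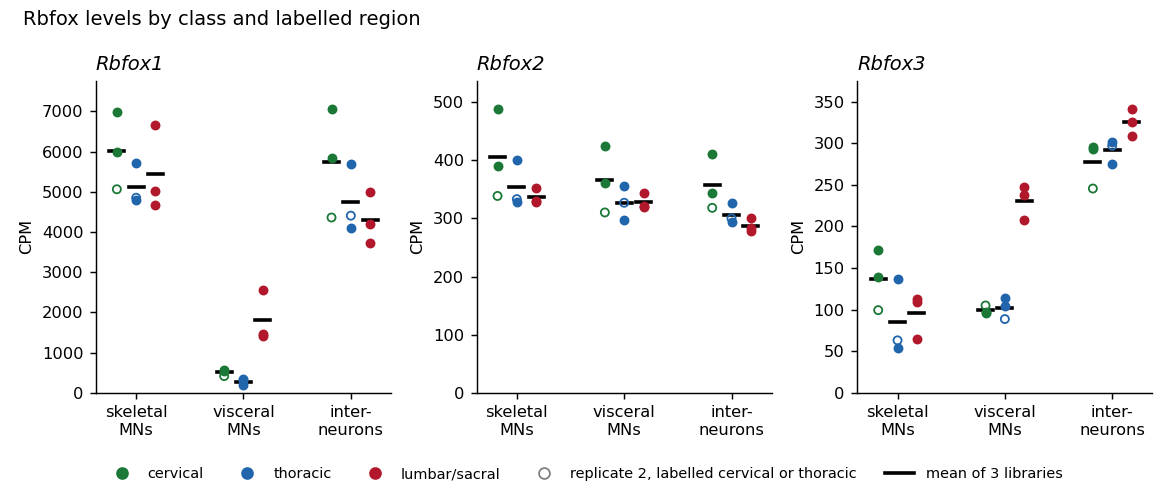
Level of the 3 genes in CPM (linear axes from 0) in the 9 libraries of each class, by region, with a point per library and a black bar for the mean; open symbols are the replicate 2 libraries labelled cervical or thoracic. The lumbar/sacral visceral libraries lie above all rostral ones for *Rbfox1* and *Rbfox3*, and the lumbar/sacral interneuron libraries lie just above the rostral ones for *Rbfox3* (308 to 341 against 246 to 302 CPM), with overlap in the other classes and genes.

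Cluster V8 made up 30.5% ± 4.14 of the visceral nuclei of a lumbar/sacral library (SD, n = 3), 0.172% ± 0.151 of a cervical one and 0 of a thoracic one. It had 5043, 3657 and 3178 CPM of *Rbfox1* and 287, 259 and 375 CPM of *Rbfox3* in lumbar/sacral replicates 1, 2 and 3. With each visceral cluster that had 10 nuclei in every library given the same weight, which leaves out V8, the *Rbfox1* difference fell from 2.23 to 1.15 and was no longer called (adjusted p = 0.409), and that of *Rbfox3* was 0.88 and still called (adjusted p = 0.0111). Over the 7 visceral clusters with at least 2 sums from each region, *Rbfox3* was higher in the lumbar/sacral libraries in 7 (median log2 difference 0.86), with no overlap in V2, V4, V5, V6 and V7. V6 had 2 lumbar/sacral libraries, 1 of them with 13 nuclei, and V5 had 4 rostral ones. V10 had 1 lumbar/sacral library and was left out, with *Rbfox3* at 82.1 CPM there and at 78.3 to 137 in the rostral libraries. *Rbfox1* was higher in 6 of the 7 (median 0.94), with no overlap in V2 and V3. The clusters share their libraries and pools, and the share of all genes without overlap was not computed, so these counts are a description only. In V2 *Rbfox1* ran from 521 to 1405 CPM in 3 lumbar/sacral libraries and from 82.3 to 360.2 in 6 rostral ones, and *Rbfox3* from 216 to 261 and from 42.7 to 98.6. Lumbar/sacral V2 was thus the cluster outside V8 in which both genes stood apart from their rostral levels. In lumbar/sacral visceral MNs *Rbfox1* was at 29.1 to 38.3% of the skeletal level of the same library, where *Tns1* was at 7.18 to 8.51%. The class value rests in part on V8: in lumbar/sacral V1 and V7 the medians of *Rbfox1* were 5.31 and 4.34%, below those of *Tns1* at 10.3 and 18.3%, while in V2 it was at 10.4 to 21.1% with *Tns1* at 6.31 to 9.77%.

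**Figure D5:**
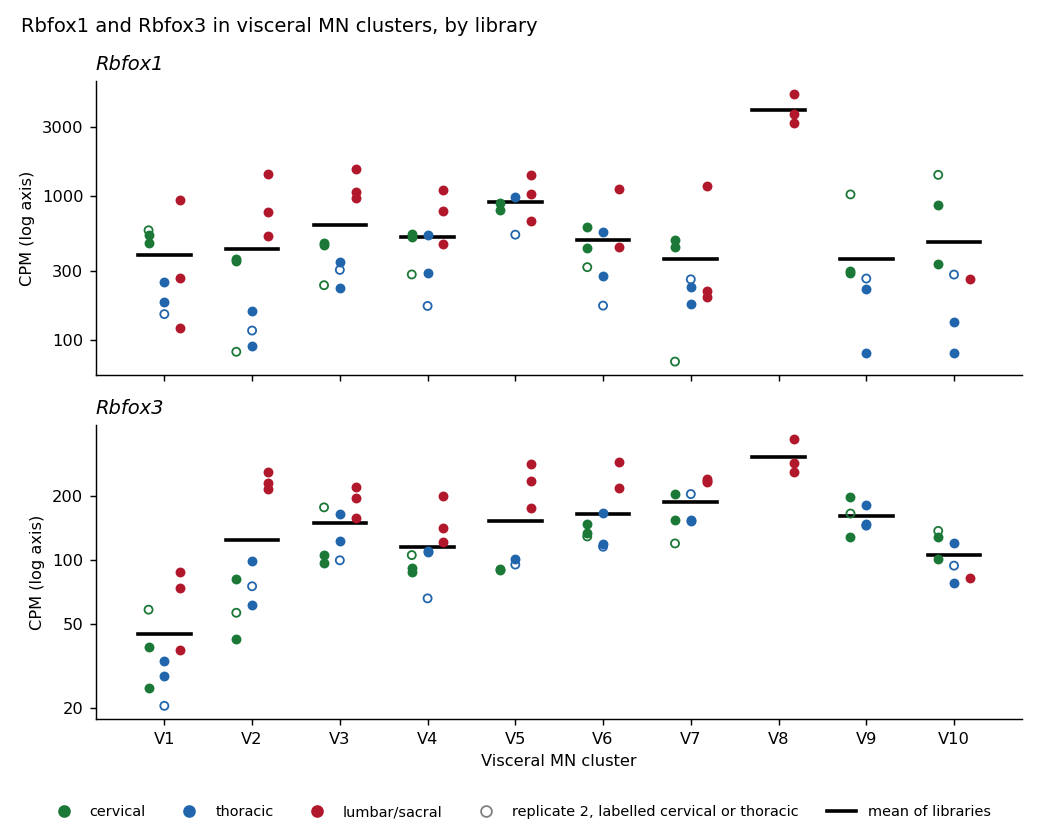
Levels of *Rbfox1* and *Rbfox3* in CPM (log axis) in the visceral clusters, lumbar/sacral libraries beside rostral ones, with a point per library sum of at least 10 nuclei and a black bar for the mean over all of them; open symbols are the replicate 2 libraries labelled cervical or thoracic. V8 reaches 10 nuclei in the lumbar/sacral libraries alone, and both genes are apart between regions in V2.

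The effect of region differed between the classes. Tested as the difference between classes within each library, the lumbar/sacral effect on *Rbfox1* was smaller in skeletal than in visceral MNs by a log2 value of −2.27 (standard error 0.23, adjusted p = 0.000223), and larger in visceral MNs than in interneurons by 2.497 (standard error 0.23, adjusted p = 7.97e-05). For *Rbfox3* these values were −1.28 (adjusted p = 0.0246) and 0.96 (adjusted p = 0.00106). In these comparisons 2 of 3 members were called each, where 5.96% and 8.94% of genes were. Between skeletal MNs and interneurons 0 of 3 members were called, at 0.157% of genes. The −1.28 for *Rbfox3* was lost on leaving out any 1 of the replicates, any 1 lumbar/sacral library or cervical replicate 3 (adjusted p of up to 0.116), and without both replicate 2 libraries labelled cervical and thoracic it was −1.42 (adjusted p = 0.0226). Without these 2 libraries the other values were −2.32, 2.58 and 0.97, all called. The visceral class enters as a whole here, with V8 at 30.5% of its lumbar/sacral nuclei. The part that this difference in cluster mix has in the values was not tested.

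Within skeletal MNs the lumbar/sacral against rostral log2 fold change was −0.04 for *Rbfox1*, −0.16 for *Rbfox2* and −0.13 for *Rbfox3* (adjusted p = 0.961, 0.900 and 0.924, limma), in a comparison that called 0.01% of genes. In interneurons it was −0.27, −0.20 and 0.19 (adjusted p = 0.9997 each), where 0.051% were called. Taken by type, 0 of 3 members were called in S1, S2 or S3, where 0, 0 and 0.0711% of genes were. Without both replicate 2 libraries labelled cervical and thoracic, the values were −0.11, −0.23 and −0.30 in skeletal MNs and −0.38, −0.24 and 0.15 in interneurons. None of these was called, nor was any member in S1, S2 or S3, where values then ran from −0.39 to 0.29. Between cervical and thoracic libraries limma called 0 genes in each class, with 607, 160 and 189 genes at an unadjusted p under 0.05 in skeletal MNs, visceral MNs and interneurons. The largest difference of a member there was that of *Rbfox1* in visceral MNs, 0.90 (standard error 0.28, adjusted p = 0.945 with limma), and 1.12 (adjusted p = 0.658) without both replicate 2 libraries labelled cervical and thoracic.

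Between the male and the female pool 0 of 3 members were called in any class, with log2 fold changes from −0.32 (*Rbfox3* in skeletal MNs, adjusted p = 0.537) to 0.09 (*Rbfox1* in visceral MNs, adjusted p = 0.880), male minus female. The comparison called 0.0725%, 0.0513% and 0.0521% of genes in skeletal MNs, visceral MNs and interneurons. Sex and pool cannot be told apart.

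Other regulators of neuronal splicing were followed beside the Rbfox genes. Of 22 tested between skeletal and visceral MNs, where 66.7% of all genes were called and 45.1% of the calls were higher in skeletal MNs, 9 were higher and 11 lower in skeletal MNs, with a median log2 fold change of −0.20 against −0.04 over all genes. The lowest were members of the CELF family of RNA-binding proteins: *Celf6* differed by −2.78, *Celf5* by −1.78, *Celf3* by −1.60 and *Celf4* by −1.43. *Celf6* and *Celf5* were low in skeletal MNs, at 8.39 and 16.2 CPM. The family was not uniform: *Celf2* was at 252 CPM in skeletal and 182 in visceral MNs, and *Celf1* at 154 and 182 (both named here after their values were seen). *Celf4* was at 318 ± 61.9 CPM in skeletal MNs and 854 ± 65.1 in visceral MNs (SD, n = 9). Against the same background, of 8 proteins that assemble with Rbfox, 7 were lower in skeletal MNs, among them *Ddx5*, an RNA helicase, by −1.37 and *Matr3* and *Hnrnpc* by −0.49 and −0.47. Of 9 genes with exons or transcripts under Rbfox control, 5 were higher and 3 lower, and *Grin1*, an NMDA receptor subunit, was higher by 0.98, *Vamp1*, a synaptic vesicle protein, by 0.96 and *Scn8a*, a sodium channel, by 0.84.

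Between alpha and gamma MNs, S2 against S3, 31.1% of all genes were called and 56.6% of the calls were higher in S2. Of these 22 splicing regulators 1 was higher in S2 and 8 were lower, with a median of −0.19 against 0.01 over all genes. *Celf4* differed by −1.35, *Celf2* by −1.10, *Celf3* by −0.84 and *Khdrbs3*, a STAR family splicing factor, by −0.77, and the one higher was *Elavl4* (0.25, named after its value was seen). The levels of *Celf4* were 155 ± 125 CPM in S2 and 330 ± 52.9 in S3 (SD, n = 9). Of the partner proteins *Ddx5* alone was called, at −0.59. Of the 9 genes under Rbfox control 3 were higher and 3 lower, with *Cacna1c*, an L-type calcium channel, at 1.68 and *Ank3*, which anchors channels at the axon initial segment, at −0.83. Total counts of a gene do not show how its exons are joined. Between lumbar/sacral and rostral visceral MNs, 4.27% of all genes were called and 54.4% of the calls were higher in lumbar/sacral ones. Of 22 splicing regulators 3 were lower there and 0 higher. They were *Khdrbs3* (−1.18), *Elavl4* (−0.57) and *Ptbp3* (−0.54), named after their values were seen. Of the 8 partner proteins 0 were called, and of the genes under Rbfox control *Grin1* was higher, by 0.54, and no other was called.

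The genes most like each member over the 21 clusters were ranked by Pearson's r of mean log2 levels, among 3716 genes, as a description of clusters that share their libraries. For *Rbfox1* they were *Ano4* (r = 0.89), *Sgpp2* (0.89) and *Zfp385b* (0.87), and the most opposite were *Jam3* (−0.94), *Gsk3b* (−0.90) and *Mme* (−0.90). For *Rbfox3* they were *Nedd4l* (0.80), *Syn3* (0.76) and *Rangap1* (0.76), against *Gab2* (−0.79), *Nrip1* (−0.78) and *Creb1* (−0.77). *Rbfox2*, with its narrow range, had the lowest values, *P4ha1* (0.72), *Lrp8* (0.70) and *Dhx32* (0.68), against *Glra3* (−0.68), *Chrna7* (−0.65) and *Celf2* (−0.64). In the pools taken one at a time, the *Ano4* value was 0.87 to 0.89, that of *Nedd4l* 0.68 to 0.89 and that of *P4ha1* 0.52 to 0.79.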

How the data were processed

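Nuclei of 9 spinal cord libraries were sequenced with 10x Chromium 3′ chemistry. Per the submitters' processing notes, Cell Ranger 3.1.0 and Seurat were used, and DESeq2 is listed too, with no result of it used here. Per the study's methods reads were counted on a GRCm38 pre-mRNA reference, so introns count, and filtered nuclei were normalized with SCTransform. The deposited values are therefore treated as a score, corrected counts rounded to whole numbers by the authors' model, not as raw counts, and no count model was run. The authors' labels gave region, replicate, class and cluster.

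Corrected counts were summed by library and cluster or class (at least 10 nuclei), scaled to 1e+06 and put on the log2(CPM + 5) scale. This pseudocount understates the change of low genes. limma 3.58.1 in R 4.3.3 was fitted with a trend to genes that reached 10 CPM in no fewer than 3 sums, with p adjusted after Benjamini and Hochberg over all genes and calls at an adjusted p under 0.05. Class and type fits had the library as a term, region fits none, sex fits the region and no mixed pool. The difference of region effects between classes was fitted to the per-library difference, a fit added after seeing the data. Replicates are pools of mice, and the libraries of a number come from the same pool. Deviations from the region means correlated within a number with a median of 0.67 (skeletal), 0.65 (visceral) and 0.75 (interneuron), range −0.22 to 0.92. Between numbers the medians were −0.44, −0.40 and −0.45. Deviations from a shared mean cancel out, so positive values within numbers entail negative ones between them on balance. Cervical replicate 3 had −0.22 to −0.01 with its own number and 0.32 to 0.46 with replicate 1. Cervical replicate 2 had 0.34 to 0.51 with thoracic replicate 2 and 0.58 to 0.61 with thoracic replicate 3. Numbers thus pair the libraries in the medians, but not every library.

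On simulated data with the library layout, 93, 69.5 and 92% of 200 genes changed by 2-fold were recovered in the class (11292 genes), visceral region (10031) and S2 against S3 (11465) comparisons. Of the calls, 5.58, 3.47 and 5.16% were false. The simulated sums were drawn independently, with 1 dispersion for all genes and no effect of pool or library. These rates may therefore not hold for the real data, where libraries of a pool can deviate together. Scrublet, in scanpy 1.11.5, called 164 nuclei (1.02%) as doublets, which were kept except in an alternative. Thinning to 4000 corrected counts left out 21.9% of lumbar/sacral replicate 1 and no nucleus of another library. Named genes are the members, the 3 genes most like and most opposite to each among those with a mean of at least 50 CPM, and up to 4 called genes of each list with the largest change in S2 against S3 and in skeletal against visceral MNs. Some genes that this rule names are not reported here. The members and the lists were chosen with earlier results of these data known. The rest was done with scipy 1.17.1, pandas 2.3.3, numpy 2.4.6 and matplotlib 3.10.9 under Python 3.11.15. Alternatives were pseudocounts of 1 and 20, no and a stricter filter, scaling by the median of ratios, a minimum of 20 nuclei, thinning, no doublets, a fixed cluster mix, other blocks and each replicate or library left out. Cervical and thoracic libraries as 1 group, and region results without both replicate 2 libraries labelled cervical and thoracic, were added after seeing the data.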

Additional observations from a re-analysis of the deposited data

Results flagged for a closer look

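A total of 10 values stood far from the other libraries by Dixon's criterion, of 69 groups of 4 to 10 libraries looked at, where chance gives about 1 in 20. Of these, 6 were *Rbfox2* in cervical replicate 3, where it was the highest value, at 529.7 CPM in S1, 288 in I1, 468 in I2, 567 in I8, 488 over skeletal MNs and 411 over interneurons. These share 1 library, and the classes hold the clusters, so they are not separate. *Rbfox1* was high in lumbar/sacral replicate 1 in V6 (1118 CPM) and V7 (1159 CPM), and in the library labelled cervical replicate 2 in V9 (1019 CPM). *Rbfox3* was low in I2 in the library labelled cervical replicate 2, at 173 CPM.

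The lumbar/sacral against rostral effect also differed between classes by limma on per-library differences. Skeletal minus visceral, it was −2.27 for *Rbfox1* and −1.28 for *Rbfox3*. Visceral minus interneuron, it was 2.497 for *Rbfox1* and 0.96 for *Rbfox3*. The visceral class includes V8, whose part in these values was not tested.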

How the results depend on the processing

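The members' 63 limma results took 1467 values under alternatives, of which 1431 kept their direction and their side of the threshold, 32 were no longer called, 4 became called and 0 called values changed sign (43 uncalled values did and stayed uncalled). Of 441 levels 440 stayed within 1 SD, and *Rbfox3* in I7 moved to 508 CPM with thinned nuclei. The causes were not tested, except that fewer libraries enter where one is left out.

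Without the replicate block, that is with no library term, the S1 minus S3 values were −0.26 for *Rbfox1* (adjusted p = 0.297) and 0.25 for *Rbfox2* (0.0856), and *Rbfox2* was at 0.20 in skeletal MNs against interneurons (0.0552), 0.10 in skeletal against visceral MNs (0.355) and 0.10 in visceral MNs against interneurons (0.414). With the replicate block in place of the library the 2 last were 0.10 (0.296) and 0.10 (0.334) and *Rbfox1* in S1 against S3 was −0.26 (0.172). The replicate block changed no other call of a member. In region comparisons it left *Rbfox1* in visceral MNs at 2.23 and *Rbfox3* at 1.15.

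With thinned nuclei *Rbfox2* was at 0.0887 between skeletal and visceral MNs (adjusted p = 0.0855) and 0.0893 between visceral MNs and interneurons (0.106). Scaling by the median of ratios gave 0.0315 for the latter (0.557), and −0.30 for *Rbfox1* and 0.21 for *Rbfox2* in S1 against S3 (0.0622 and 0.128). With no filter on low values the *Rbfox3* difference of region effects, skeletal minus visceral, was −1.28 (0.0838). With a fixed cluster mix *Rbfox1* in visceral MNs was at 1.15 (0.409).

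Leaving out a replicate or library gave, for *Rbfox2*, 0.0851 to 0.114 between skeletal and visceral MNs, 0.0866 to 0.12 between visceral MNs and interneurons and 0.20 to 0.29 between S1 and S3. *Rbfox1* ran from −0.27 to −0.23 between S1 and S3 and from 1.96 to 2.38 in lumbar/sacral visceral MNs. *Rbfox3* ran from −0.63 to −0.26 between skeletal and visceral MNs, from 1.103 to 1.23 in lumbar/sacral visceral MNs and from −1.48 to −1.09 in the skeletal minus visceral region effect.

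Over all genes, calls in lumbar/sacral against rostral visceral MNs numbered 428, with 47 without replicate 1, 0 without replicate 3, 71 with a fixed cluster mix and 737 with the replicate block. Among genes at 10 CPM or more in every sum, the class calls went from 7537, 6718 and 5803 to 4518, 4061 and 3545, and those of S2 against S3 from 3560 to 2164. Without replicate 1, those of S2 against S1 went from 2908 to 1650, those of S1 against S3 from 2274 to 1456, and those of the region effects, against visceral MNs, from 655 to 161 and from 959 to 269. The sex calls of 7, 5 and 5 became 1329, 425 and 1331 without cervical replicate 3. With the median of ratios, 49.2% of calls in visceral MNs against interneurons were higher, in place of 61.2%, and 49.4% in place of 61.6% for their region effects.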
